A study of Mus musculus with 25 samples.

Results

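Ctrb1, Cel and Cpa1 encode digestive enzymes of the exocrine pancreas, and Epcam encodes an adhesion molecule of epithelial cells. The 4 genes were followed here because they were bright on some liver arrays of a lean congenic mouse strain. Their probes were taken by gene symbol from the platform annotation, and each gene had 1 probe. They are 4 of 13832 genes named by the 14401 probes with 1 gene symbol, on an array of 32996 probes. The genes were picked from the comparison of the strains in liver, and their liver values are therefore a description with no test. The label of a pancreatic enzyme gene fits Ctrb1, Cel and Cpa1 by their known products, while Epcam is an epithelial gene and no enzyme, so Epcam is described apart.

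The study compared the congenic strain B6.C-D7Mit353, a homozygous strain described as lean, with C57BL/6J (B6), the strain it was bred onto, in liver, brain, gonadal white adipose tissue and gastrocnemius muscle. Neither strain was given a treatment in the labels, and the sources used here give no age, sex or diet. Each tissue had 3 congenic and 3 B6 arrays, described by the submitters as biological triplicates, and 1 further congenic brain array entered alternatives only. Some liver, fat and muscle titles share a number, read here as the mouse the tissues came from, although the labels do not say so. Signal is the deposited brightness of a probe on a linear scale, and a probe was called detected where its deposited signal to noise ratio (S/N) was at least 3. In whole tissue, fewer cells of a type and less RNA per cell cannot be told apart.

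The pancreas makes its digestive enzymes in acinar cells, which store them in granules and release them through ducts into the intestine. Ctrb1 is chymotrypsinogen B, a serine protease precursor that cuts after aromatic residues. Cel is carboxyl ester lipase, which hydrolyses cholesterol esters and other lipids once bile salts activate it, and Cpa1 is carboxypeptidase A1, which removes residues from the carboxyl end of peptides. Acinar cells switch such genes on through PTF1, a complex of Ptf1a with Rbpjl or Rbpj that binds a paired E box and TC box. Epcam is carried by most simple epithelia. In normal adult liver it marks bile duct cells and not hepatocytes.

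The promoters of the 3 enzyme genes are shown because the genes moved together over the liver arrays, and capitals mark the letters searched. They are the 250 bases before each gene's RefSeq start on GRCm38.p6, printed 5′ to 3′ on the gene's own strand. Ctrb1 lies on the minus strand at chr8:111691011-111691260, Cel on the minus strand at chr2:28563404-28563653 and Cpa1 on the plus strand at chr6:30638968-30639217.
Ctrb1: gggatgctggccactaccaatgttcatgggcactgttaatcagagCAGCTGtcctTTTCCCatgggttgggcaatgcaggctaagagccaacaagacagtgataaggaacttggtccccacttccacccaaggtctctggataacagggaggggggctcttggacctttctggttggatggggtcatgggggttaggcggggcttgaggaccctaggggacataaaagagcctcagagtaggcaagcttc
Cel: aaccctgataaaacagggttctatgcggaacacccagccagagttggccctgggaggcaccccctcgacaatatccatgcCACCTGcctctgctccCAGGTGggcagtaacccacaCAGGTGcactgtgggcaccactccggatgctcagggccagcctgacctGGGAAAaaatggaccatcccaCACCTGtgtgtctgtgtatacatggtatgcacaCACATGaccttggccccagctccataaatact
Cpa1: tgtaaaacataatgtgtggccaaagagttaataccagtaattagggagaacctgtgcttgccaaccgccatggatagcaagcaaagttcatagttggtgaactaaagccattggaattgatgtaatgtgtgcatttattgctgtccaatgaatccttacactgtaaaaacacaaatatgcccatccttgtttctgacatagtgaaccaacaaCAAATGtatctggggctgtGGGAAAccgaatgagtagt
The letters searched were the E box CANNTG, which reads alike on both strands, and the TC box TTTCCC on either strand. No printed match of one overlapped a match of the other. Ctrb1 held 1 E box and 1 TC box, whose first bases lay 205 and 195 bases before the start. Cel held 5 E boxes and 1 TC box, and Cpa1 held 1 of each. Among 32841 RefSeq windows of this length, 66.2% held an E box, 22% a TC box and 14.2% both. The Epcam window, at chr17:87635729-87635978 on the plus strand, held 2 E boxes and no TC box. A match is a string of letters and not a measured binding site.

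Between 13115 and 18236 probes were detected per array over the 25 arrays, and between 13279 and 15030 on the liver arrays. All 9 hepatocyte markers with a probe were detected on all 6 liver arrays, with a summed Signal of 8787510 to 10125700. All 7 skeletal muscle markers were detected on all 6 gastrocnemius arrays. The tissue labels of these arrays thus matched their defining markers. No pair of arrays was close to identical, as the highest correlation between any pair of the 24 arrays over all probes was 0.969.

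Liver congenic replicate 2 carried the 3 enzyme genes at a level far above the other 5 livers, and congenic replicate 3 was next. Ctrb1 Signal was 141.9, 256787 and 4620 on congenic liver replicates 1, 2 and 3, and 85.9, 1072.5 and 948 on B6 replicates 1, 2 and 3. Ctrb1 was detected on 4 of the 6 livers, those other than congenic replicate 1 and B6 replicate 1. Its Signal on congenic replicate 2 was 55.6 times that on congenic replicate 3.

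Cel, the lipase, alone among the 4 genes was detected on all 6 livers. Cel Signal was 812.8, 149637 and 2604.2 on congenic replicates 1, 2 and 3, and 719.6, 1044.8 and 960.3 on the B6 replicates. Congenic replicate 1 fell between the B6 livers, so the strains overlapped. The B6 livers lay close together, while congenic replicate 2 was 57.5 times congenic replicate 3. With S/N of at least 5 required, Cel was detected on 3 livers in place of 6.

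Cpa1, the carboxypeptidase, gave the brightest value of the 4 probes on any array. Cpa1 Signal was 274, 826065 and 11179.3 on congenic replicates 1, 2 and 3, and 1056.9, 3999.8 and 2658.5 on the B6 replicates. It was detected on 5 livers, all but congenic replicate 1, whose S/N was 0. Congenic replicate 1 was below all B6 livers, and congenic replicates 2 and 3 were above them. Congenic replicate 2 was 73.9 times congenic replicate 3.

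Epcam followed another order. Epcam Signal was 442.1, 2497.7 and 4342.8 on congenic liver replicates 1, 2 and 3, and 238.9, 342.1 and 594.6 on the B6 replicates. The brightest liver was congenic replicate 3 and not congenic replicate 2. Epcam was detected on all 3 congenic livers, on replicate 1 with an S/N of 3.0 that is just at the threshold, and on no B6 liver. With S/N of at least 2 required, it was detected on 5 livers in place of 3. Congenic replicate 1 was below B6 replicate 3 in Signal and above it after normalization.

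**Figure D1:**
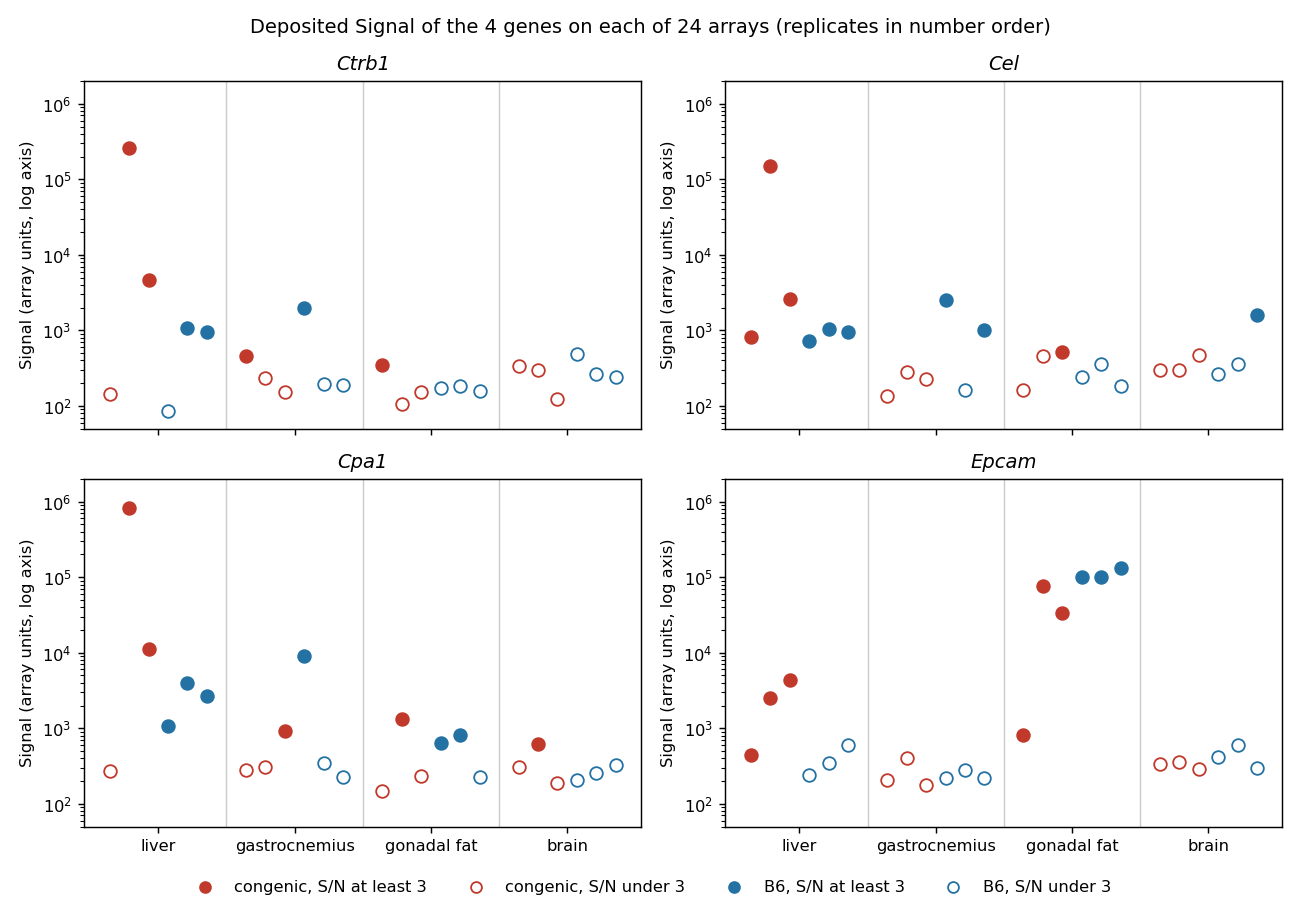
Deposited Signal (log axis) of Ctrb1, Cel, Cpa1 and Epcam on 24 arrays, with 3 congenic (red) and 3 B6 (blue) arrays per tissue in order of replicate number. Filled points have S/N of at least 3. Congenic liver replicate 2 reaches 256787, 149637 and 826065 for the enzyme genes, B6 gastrocnemius replicate 1 stands above the other muscle arrays for the same 3 genes, and Epcam is brightest in gonadal fat.

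The strain difference of the enzyme genes in liver rested on congenic replicate 2. On the log2 scale after normalization, congenic minus B6 was 3.68 ± 1.97 (SE, n = 3 per strain) for Ctrb1, 2.97 ± 1.39 for Cel, 2.67 ± 2.03 for Cpa1 and 2.37 ± 0.68 for Epcam. Without congenic replicate 2, these differences were 1.01 for Ctrb1, 0.82 for Cel and -0.18 for Cpa1, while Epcam stayed at 2.07. Without congenic replicate 1, the liver in which Ctrb1 and Cpa1 were not detected, they were 6.17 for Ctrb1, 4.45 for Cel, 5.35 for Cpa1 and 3.24 for Epcam. Ctrb1, Cel and Cpa1 overlapped between the strains, whereas the normalized Epcam values were higher on all congenic than on all B6 livers, as were 3.1% of 13956 tested probes. Epcam was not detected on a B6 liver, so the ratio of its means, 5.16-fold higher in the congenic, is a bound in regard to the B6 level only. It is no lower limit over the spread of the arrays, as without congenic replicate 3 the difference was 1.77 log2 units. The fit used for the background called 0% of the 13956 tested probes at an adjusted p under 0.05 (limma), and 3.27% at an unadjusted p under 0.05.

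**Figure D2:**
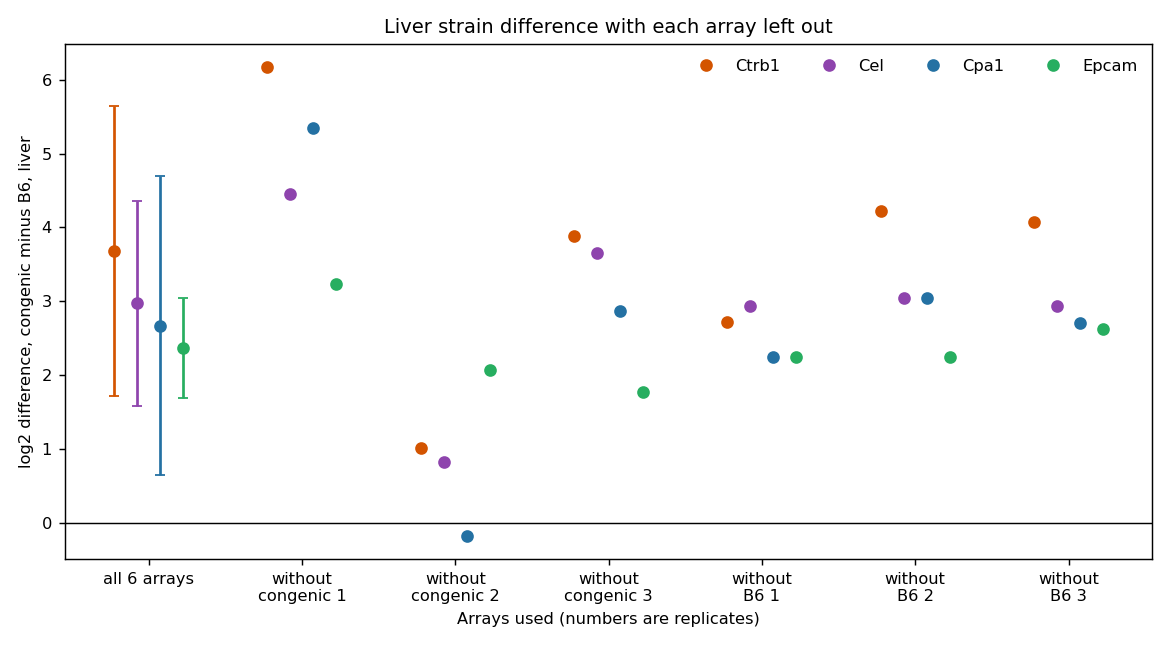
Congenic minus B6 log2 difference in liver for each gene, with all 6 arrays (bars are SE of the limma fit, 3 arrays per strain) and with each array left out. Without congenic replicate 2 the enzyme genes fall to 1.01, 0.82 and -0.18, and Epcam is at 2.07.

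Over the 6 liver arrays, the normalized log2 values of the enzyme genes correlated at r = 0.944 for Ctrb1 with Cel, 0.977 for Ctrb1 with Cpa1 and 0.947 for Cel with Cpa1. These values describe 6 arrays, 1 of which is far from the others. Without congenic replicate 2 they were 0.783, 0.885 and 0.698 over 5 arrays. Epcam correlated with the mean of the 3 enzyme genes at r = 0.718 over 6 arrays and 0.756 over 5.

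Congenic replicate 2 carried other acinar products as well. Of a list of 37 acinar enzyme and secretory genes that holds Ctrb1, Cel and Cpa1, 27 had a probe. All 27 were detected on congenic replicate 2, against 6 on congenic replicate 1, 19 on congenic replicate 3, and 15, 14 and 14 on B6 replicates 1, 2 and 3. All 27 were also highest on that array, as were 14.9% of all tested liver probes. The summed Signal of the list was 9076700 there, 204572 on congenic replicate 3, 42339.6 on congenic replicate 1 and 49002.8 to 86326.9 on the B6 livers.

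Amy2a5, the pancreatic amylase that digests starch, had the widest range of the list. Its Signal was 202.5, 2104310 and 49820.5 on congenic livers 1, 2 and 3, and 7304.6, 24914.6 and 15264.4 on the B6 livers. Prss2, a trypsinogen, stood at 114.4, 1278040 and 27669.7 on the congenic livers and at 2800.7, 6705.5 and 4085.2 on the B6 livers. Both genes thus had the order of Cpa1, with congenic replicate 1 lowest and below all B6 livers. Cela2a, a chymotrypsin-like elastase, had the same order, at 175.9, 1178200 and 28200 on the congenic livers and 3746.7, 7316.9 and 4374.5 on the B6 livers. The order of congenic replicate 2, then congenic replicate 3, then all B6 livers held for 17 of the 27 genes (63%) and for 5.75% of tested probes. With congenic replicate 1 also lowest it held for 10 (37%) and 2.2%.

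Some trypsinogen probes did not follow this order below congenic replicate 2. Prss3 Signal was 20277.9, 342168 and 15773.8 on the congenic livers and 16814.6, 15607.6 and 12629 on the B6 livers, so the 5 livers other than congenic replicate 2 lay close together. Prss1 was at 10406.5 on congenic replicate 1 and at 3695.2 to 5899.8 on the B6 livers. Try5, like Prss1 and Prss3, was detected on all 6 livers. The trypsinogen genes are close copies of one another, as are kallikreins and elastases, and a probe may read more than its named gene.

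The ratio of congenic replicate 2 to congenic replicate 3 varied between the acinar genes. Its median over the 19 genes detected on both was 46.2, with a lowest value of 3.19 for Serpini2, a protease inhibitor of the serpin family, and a highest of 127 for Cpb1, a carboxypeptidase for basic residues. Ctrb1, Cel and Cpa1 are themselves among these 19 genes, and their ratios, from 55.6 to 73.9, lay above that median. Over all 27 genes, with no filter on low values, 27 were higher in the congenic mean than in the B6 mean by a median of 2.40 log2 units. Of all tested liver probes 49% were higher in the congenic mean, with a median of -0.008. Without congenic replicate 2, 17 of 27 were higher and the median was 0.22. The share and median over all tested probes are for 6 arrays and not for the arrays without that replicate.

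**Figure D3:**
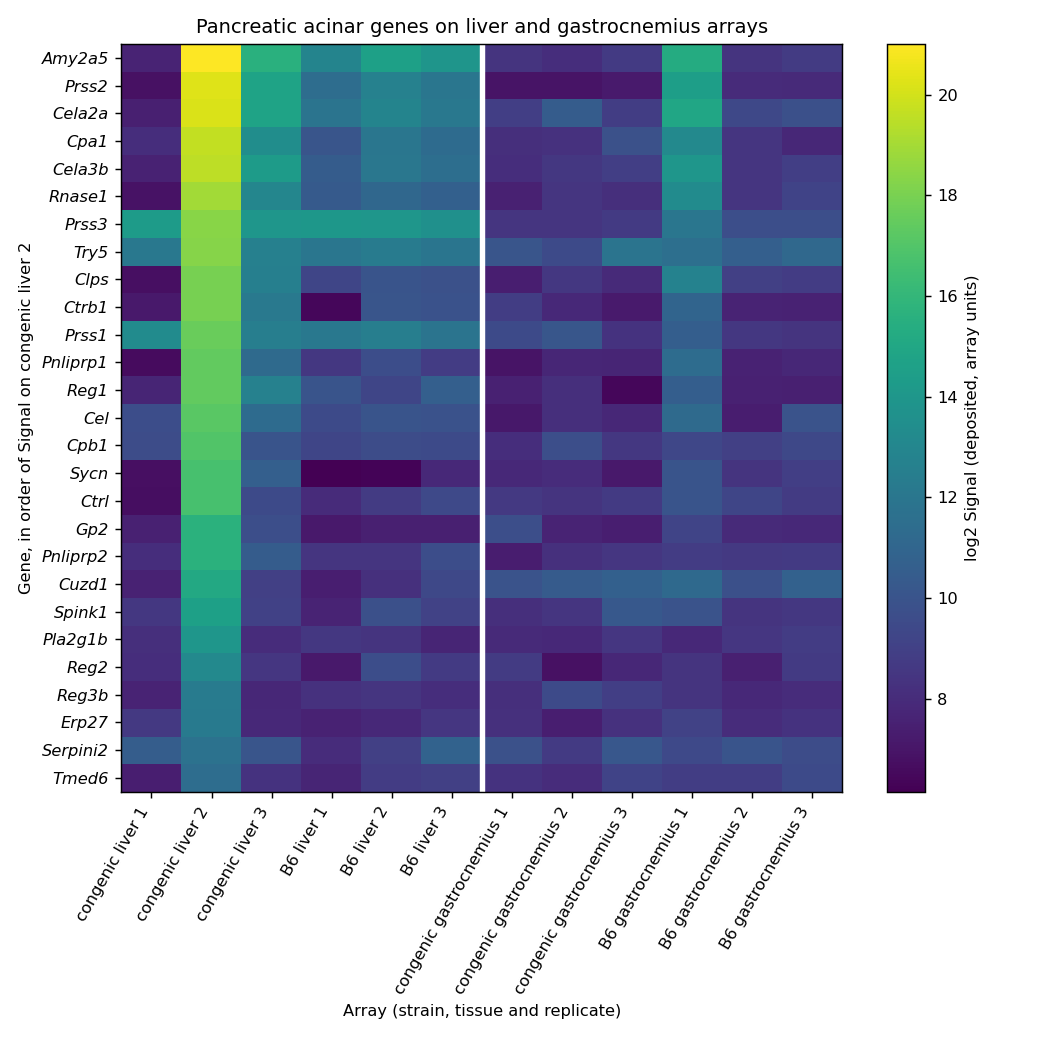
Deposited Signal on the log2 scale (colour) of 27 acinar enzyme and secretory genes on the 6 liver and 6 gastrocnemius arrays, with genes in order of Signal on congenic liver replicate 2. Congenic liver replicate 2 is bright for all 27 genes, and congenic liver replicate 3 and the B6 livers for part of them. On B6 gastrocnemius replicate 1, 17 genes are detected, and 15 of these are above all other gastrocnemius arrays.

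The transcription factors that acinar cells use were low and moved less. All 7 on the list had a probe, and all 7 were detected on congenic replicate 2, against 2 to 4 on the other livers. Of the 7, 5 were highest on that array, as were 14.9% of tested probes. Ptf1a, the defining factor of the PTF1 complex, was detected on congenic replicate 2 only, with a Signal of 464.3 there and 76.4 to 314.4 on the other livers. Rbpjl, its partner in acinar cells, was at 2622.3 on congenic replicate 2, at 428.7 and 419.1 on congenic replicates 1 and 3, and at 1681, 1175.5 and 1215.5 on the B6 livers. Rbpjl thus did not have the order of the enzymes, as congenic replicate 3 was the lowest liver. Bhlha15, a factor that helps acinar cells mature, was at 527.2, 902.3 and 220 on the congenic livers and at 104.3, 196.2 and 343.6 on the B6 livers, detected on 2. Nr5a2 and Gata6 were detected on all 6 livers and were not highest on congenic replicate 2.

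Most islet genes were near background on the livers other than congenic replicate 2. Of 15 islet genes with a probe, 8 were detected on no liver, 6 on congenic replicate 2 and 1 or 2 on each of the others. Of the 7 detected on any liver, 5 were highest on congenic replicate 2. Each of these 5 was detected on that liver only, so they entered the 7 through it and the count is no separate result. The share of tested probes highest there, 14.9%, is over probes detected on at least 3 livers, a filter that none of the 5 passed. Ins2, an insulin gene, was detected on congenic replicate 2 only, at a Signal of 1856.4 against 78.9 to 229.8 on the others. Chga, Scg2 and G6pc2 were each detected on 1 liver and highest on congenic replicate 2. Their Signal there was 777.5, 951.7 and 600.7, against at most 221.5, 336.3 and 324.1 on the others. Sst and Ppy, hormones of delta and PP cells, were detected on no liver, while Pyy was detected on all 6 and ranged over 0.53 log2 units.

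Epcam and part of the duct epithelial genes were highest on congenic replicate 3. Of 17 biliary and duct genes with a probe, Epcam included, 16 were detected on at least 1 liver. Of these 16, 10 were highest on congenic replicate 3 and 1, the water channel Aqp1, on congenic replicate 2. Among tested liver probes, which were detected on at least 3 livers, 18.6% were highest on congenic replicate 3. Muc1 and Prom1, among the 10, were each detected on 1 liver. Over the 11 that were tested, 8 were higher and 3 lower in the congenic mean, with a median of 0.16 log2 units beside -0.008 over all tested liver probes. Krt7, a keratin of bile and pancreatic ducts, had a Signal of 236.7, 625.9 and 2582.5 on congenic livers 1, 2 and 3, and 274.6, 322.5 and 499.4 on the B6 livers. Krt19, another duct keratin, was at 217.3, 561.9 and 1097.5 on the congenic livers and at 163.6 to 226.4 on the B6 livers. Like Epcam, both keratins were lower on congenic replicate 2 than on replicate 3, the reverse of the enzymes. Tspan8, a tetraspanin of epithelia, was at 198.9, 1452.7 and 2327.3 on the congenic livers and at 144 to 568.4 on the B6 livers. Krt8 and Krt18, which hepatocytes also carry, differed by at most 0.60 log2 units over the 6 livers. Cdh1, Cldn4 and Elf3, an epithelial cadherin, a claudin and a transcription factor, were highest on congenic replicate 1. Sox9, Muc1 and Prom1 were highest on congenic replicate 3 but lowest on congenic replicate 2, at log2 values of 8.36, 6.80 and 7.58, so they did not have the order of Epcam. Krt18 was also lowest on congenic replicate 2.

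Tff2, a trefoil peptide secreted by gastric and other mucosa, was bright on both congenic replicates 2 and 3, at 32573.9 and 17132.2, against 646.2 on congenic replicate 1 and 220.8 to 309.5 on the B6 livers. Of the 14 stomach and intestine genes with a probe, 7 were detected on congenic replicate 2, 6 on replicate 3 and 2 to 5 on the other livers. Of the 14, 7 were detected on no liver, among them the gastric genes Gkn1, Gkn2, Atp4a and Cblif. Vil1, an actin-binding protein of brush borders, was detected on congenic replicates 2 and 3 only, at 1007.2 and 818.7, against 94.2 to 266.9 on the other livers. Atp4b, a subunit of the gastric proton pump, was detected on 2 livers and was highest on congenic replicate 2, at 275.5. Guca2a, the intestinal peptide guanylin, was detected on 4 livers and was highest on congenic replicate 1 after normalization, at a log2 value of 10.18. The 3 genes whose liver values were most like those of Epcam, chosen after their values were seen, were Ggt5, Sdcbp2 and Krt19. Their r was 0.999, 0.998 and 0.975 over 6 arrays, and Tff2 was also among the closest 10, at 0.954. As the highest of many probes over few arrays, these r values are a description.

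Most macrophage markers also stood highest on congenic replicate 2. Of 10 with a probe, 7 were highest there, as were 14.9% of all tested liver probes. The mean of the list was 0.81 log2 units above its mean over the 6 livers. Adgre1, the widest-ranging of the list, was highest on B6 replicate 3, at 1439.7 against 548.6 on congenic replicate 2. Marco was highest on congenic replicate 3, at 1106.3 against 368 on congenic replicate 2. Vsig4, a complement receptor of Kupffer cells, was at 2162.8, 11700.8 and 2820.5 on the congenic livers and 1600.8, 3374.7 and 4394.1 on the B6 livers. The mean of the 9 hepatocyte markers was 0.02 log2 units below its 6-array mean on congenic replicate 2. The part of any of these cell types in the strain difference of the 4 genes was not tested.

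**Figure D4:**
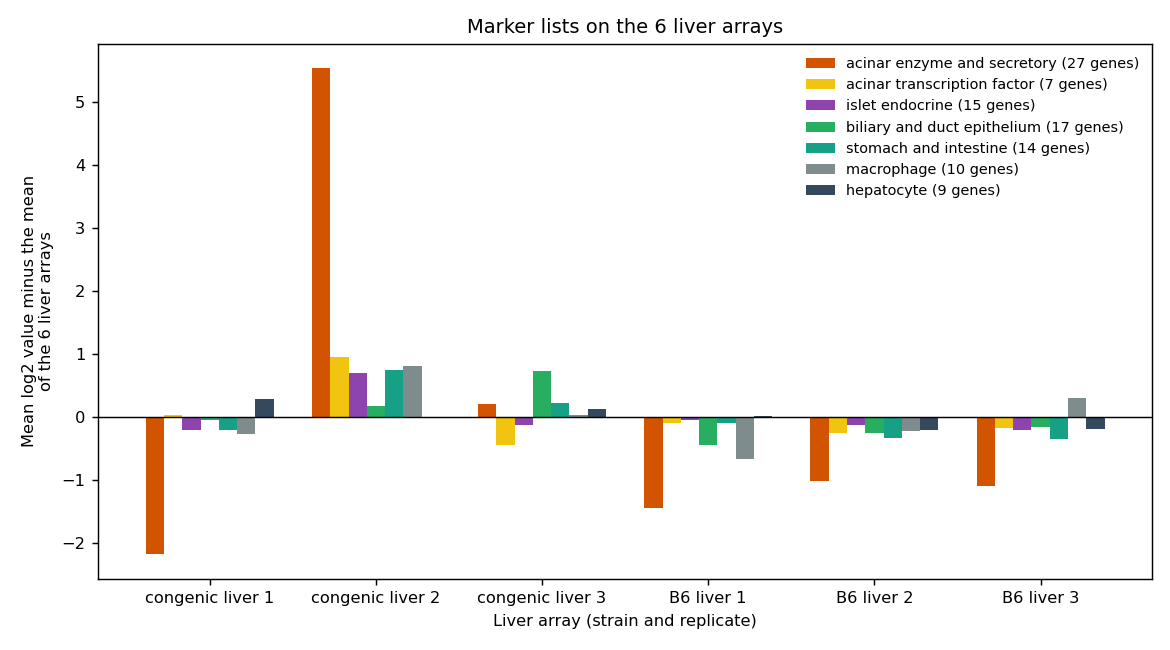
Mean log2 value of each marker list on each liver array minus its mean over the 6 liver arrays, for lists of 7 to 27 genes with a probe. The acinar enzyme list is 5.53 above on congenic replicate 2 and 2.18 below on congenic replicate 1, and the duct list is highest on congenic replicate 3 at 0.73.

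The genes closest to the mean of Ctrb1, Cel and Cpa1 over the liver arrays were found among 1400 probes that were detected on at least 2 livers and ranged over at least 2 log2 units. The 10 with the highest r were Klk1, Pnliprp1, Clps, Cela3b, Mucl2, Rnase1, Folr2, Pnliprp2, Plpp1 and Klk1b24, at r from 0.966 to 0.997. Of these, 5 are on the acinar list. Clps is colipase, the cofactor of pancreatic lipase, and Pnliprp1 and Pnliprp2 are relatives of that lipase. Klk1, a tissue kallikrein that the acinar list does not hold, had log2 values of 8.38, 17.63 and 12.51 on the congenic livers and 8.73, 10 and 9.95 on the B6 livers, so its order was that of the enzymes from the brightest liver down to B6. Folr2, a folate receptor of macrophages, ranged over 2.53 log2 units. Over 24 arrays and 12090 probes, the closest 10 were Pnliprp1, Klk1, Clps, Cela3b, Cela2a, Reg1, Prss2, Rnase1, Try5 and Amy2a5, at r from 0.914 to 0.974. Of that set 9 are on the acinar list, and the arrays share tissues, so these r values are a description.

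Outside liver, 1 muscle array carried the enzyme genes. Ctrb1 Signal was 460, 232.3 and 152 on congenic gastrocnemius replicates 1, 2 and 3, and 2002.4, 195.9 and 191.5 on the B6 replicates. Cel was at 136.1, 282.6 and 226 on the congenic arrays and at 2515.4, 164.5 and 996.3 on the B6 arrays. Cpa1 was at 282.5, 306.4 and 918.6 on the congenic arrays and at 9180.6, 351.2 and 223.6 on the B6 arrays. B6 replicate 1 was the highest gastrocnemius array for all 3 genes, with S/N of 15.4 for Ctrb1, 11.1 for Cel and 28.7 for Cpa1, and the other 5 arrays overlapped between strains for each gene. Its title shares its number with no liver array.

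On the same muscle array 17 of the 27 acinar genes were detected, against 3 to 6 on the other 5 gastrocnemius arrays. There 18 of 27 were above all of the others, and 15 were both detected and above them. Amy2a5 was at 39537.9 against 278.7 to 422.8 on the others, Cela2a at 31301.2 against 456.5 to 1399.3 and Prss2 at 22626.7 against 120.7 to 251.1. Of tested gastrocnemius probes, which were detected on at least 3 of these arrays, 16.7% were highest on that array. The 27 genes were not filtered in this way. All 7 skeletal muscle markers were detected there, and of 9 hepatocyte markers 2 were, with a summed Signal of 8443.8 that was below the range of 12322.6 to 97717.9 on the other muscle arrays. Of the 7 acinar transcription factors, 0 were detected on it. Epcam was not detected, with a Signal of 222.3 against 178 to 403.3 on the other 5 arrays.

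Brain arrays were near background for all 4 genes. Ctrb1 Signal was 339.2, 296.6 and 124.1 on the named congenic brain arrays and 483, 266.9 and 238.4 on the B6 arrays, detected on none. Cel was detected on B6 replicate 3 only, at 1578.2, and ran from 265.6 to 467.9 on the other named arrays. Cpa1 was detected on congenic replicate 3 only, at 613.1, and ran from 188.5 to 323.5 on the others. Epcam ran from 290.1 to 606.5 and was detected on none of the 6.

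In gonadal fat the enzyme genes were low and Epcam was bright. Ctrb1 was at 344.6, 106.1 and 150.4 on the congenic arrays and 173.5, 183.6 and 158.9 on the B6 arrays. Cel was at 164.4, 454.3 and 509.3 on the congenic arrays and 240.5, 354.6 and 184.2 on the B6 arrays, and Cpa1 at 147.7, 1319.4 and 233 against 641.9, 807.5 and 228.5. Each of Ctrb1 and Cel was detected on 1 fat array and Cpa1 on 3. Epcam Signal was 810.1, 77051 and 33609.8 on the congenic arrays and 100344, 101348 and 134350 on the B6 arrays. All 6 fat arrays detected Epcam, congenic replicate 1 was far below the rest, and the highest Epcam liver was above that 1 fat array only.

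Some mouse numbers recur in more than 1 tissue. The number of the brightest liver is also on congenic fat replicate 2 and congenic gastrocnemius replicate 1. That fat array had the highest Cpa1 of the 6 fat arrays and detected 15 acinar genes, against 5 to 10 on the others, but not Ctrb1 or Cel. Cuzd1 was the brightest list gene on all 6 fat arrays, from 39200.4 to 2016490, against 36007.9 on the brightest liver. Try5 was detected on every array, so a count of list genes is not particular to pancreas. That muscle array had Ctrb1 at 460 with an S/N of 3.9, and Cel and Cpa1 were not detected. The number of congenic liver replicate 3 is on congenic gastrocnemius replicate 3, with Cpa1 at 918.6 and an S/N of 5.1, and Ctrb1 and Cel were not detected there. The number of congenic liver replicate 1 is on congenic fat replicate 3, and both arrays detected Cel, with S/N of 4.3 and 5, and neither Ctrb1 nor Cpa1. The number of B6 liver replicate 1 is on B6 gastrocnemius replicate 3, where the liver detected Cel and Cpa1 and the muscle Cel alone, at 996.3 with an S/N of 3.5. The number of B6 liver replicate 2 is on B6 fat replicate 1, where the liver detected all 3 enzyme genes and the fat Cpa1 alone, at 641.9 with an S/N of 3.4.

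With liver and the other tissues normalized together, the enzyme genes were highest in liver. Mean log2 levels of Ctrb1 were 11.19 ± 3.92 (SD, n = 6) in liver, 8.56 ± 1.69 in gastrocnemius, 7.69 ± 0.72 in gonadal fat and 7.48 ± 0.68 in brain. Those of Cel were 11.93 ± 2.70, 8.85 ± 1.85, 8.29 ± 0.58 and 8.10 ± 0.75, and those of Cpa1 were 12.95 ± 3.49, 9.50 ± 2.22, 8.73 ± 1.00 and 7.61 ± 0.56, in the same order. Neighbours in this order mostly differed by less than the SD of the higher tissue. The exceptions were Cel between liver and gastrocnemius and Cpa1 between gonadal fat and brain. Epcam had another order, with 15.39 ± 2.65 in gonadal fat, 10.28 ± 1.72 in liver, 8.0 ± 0.58 in gastrocnemius and 7.91 ± 0.41 in brain, where only the last step was within the SD. Liver minus the mean of the other 3 tissues was 3.28 for Ctrb1, 3.52 for Cel, 4.34 for Cpa1 and -0.15 for Epcam. Without congenic liver replicate 2 these were 1.92, 2.45 and 3.09 for the 3 enzyme genes, so liver stayed above the mean of the others.

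Contrasts between tissues that leave out liver did not enter the choice of the genes and were tested. The tests themselves were chosen with earlier results of these data known. Epcam was higher in gonadal fat than in brain (brain minus fat -7.49 ± 0.69 log2 units, limma adjusted p = 1.98e-08, 6 arrays per tissue), with 29% of 22590 tested probes called in that direction. It was also higher in fat than in gastrocnemius (7.39 ± 0.69, limma adjusted p = 4.1e-08), where 28.3% were called in that direction. As Epcam was detected on no named brain or gastrocnemius array, the ratios of the means, 180-fold and 168-fold, are bounds in regard to the undetected level only. They are no lower limit over the spread of the fat arrays. Brain and gastrocnemius are not compared for Epcam, as it was detected on neither. The size of both differences moved with 1 fat array, congenic replicate 1 or 2. Brain minus fat was -8.41 without congenic fat replicate 1 and -6.79 without congenic fat replicate 2, and fat minus gastrocnemius was 8.31 and 6.69.

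Of the enzyme genes, Cpa1 alone passed a tissue test, with brain minus gastrocnemius at -1.95 ± 0.79 (limma adjusted p = 0.0437), in a direction called for 27.7% of probes. Without B6 gastrocnemius replicate 1, the array that carried the acinar genes, it was -1.0 and did not pass (adjusted p = 0.125, limma). Leaving out congenic brain replicate 1 or 4, any B6 brain array, congenic gastrocnemius replicate 3, or B6 fat replicate 1 or 2 also ended this call, with adjusted p of up to 0.107 (limma), and of 0.050021 without B6 fat replicate 1. Ctrb1 and Cel did not pass in any of the 3 tissue tests, with differences of -1.13 to -0.20 log2 units and limma adjusted p from 0.148 to 0.797.

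The strains were also compared in the 3 tissues outside liver. In brain and in gastrocnemius 0 of the 4 genes passed the filter of detection on at least 3 of 6 arrays, and no test was made. In gonadal fat, Cpa1 and Epcam passed it. Epcam was at -2.63 ± 1.33 log2 units, congenic minus B6 (limma adjusted p = 0.909, unadjusted p = 0.0874, n = 3 per strain). The congenic values were lower on average, but congenic replicate 2 lay within the B6 range after normalization. The 17 biliary and duct genes, Epcam included, also stood lowest on congenic fat replicate 1, where their mean was -2.26 log2 units from its mean over the 6 fat arrays, against 0.86 and -0.73 on congenic replicates 2 and 3 and 0.70, 0.47 and 0.96 on the B6 arrays. Their part in the Epcam difference was not tested. Cpa1 was at 0.13 ± 0.87 (limma adjusted p = 0.991) and overlapped. Of 17624 probes tested in fat, 0% were called and 3.46% had an unadjusted p under 0.05. The tests of whether a strain difference varied between these 3 tissues called 0 of the 4 genes, with the smallest limma adjusted p at 0.749. These tests used the fit over the 3 tissues together, so a gene could enter without passing the filter within a tissue. The smallest unadjusted p values were 0.0285 for Cel and 0.0292 for Epcam, both between fat and gastrocnemius. Cel was detected on 1 fat array and 2 gastrocnemius arrays, and was highest on B6 gastrocnemius replicate 1, at 2515.4. Epcam was detected on 0 gastrocnemius arrays, so its strain difference there is one of undetected signal. For these reasons neither p value can decide whether the strain difference varied.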

How the data were processed

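The 25 arrays are 1-colour Applied Biosystems arrays of TRIzol total RNA turned into amplified cRNA with a digoxigenin label and detected by chemiluminescence, per the labels' protocols. The deposited Signal is an intensity, and the deposited S/N is a score for each probe, per the file headers. The sources used here do not name the software that made these columns. The deposited series matrix holds log2 values equal to log2 Signal plus a constant per array, blank where S/N is below 3, and was used as an alternative.

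From the Signal, normexp background correction (offset 50), log2 and quantile normalization were applied with limma 3.58.1 in R 4.3.3, within each tissue for strain comparisons, over the 18 arrays outside liver for tissue tests and over 24 arrays for levels. Probes detected on at least 3 arrays of a fit were tested by lmFit and eBayes (intensity trend on), adjusted over all of them by Benjamini-Hochberg, at a threshold of 0.05. A bound uses, for the dim group, the higher of its own value and the lowest detected signal on each array. It allows for the undetected level and not for the spread between arrays. P-values measure the spread between these arrays, and their number limits the precision.

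Of 32996 probes, 14401 had 1 gene symbol in the platform annotation, 247 had several and 18348 are unnamed here. A B6 fat array that the design text names among livers was used as fat, as its title gives it. The members, 12 marker lists (177 entries, 136 with a probe) and tests were chosen with earlier results of these data known. The rule named the 4 genes, any acinar gene detected in liver, the 4 widest-ranging detected genes of each other list and the 10 closest genes by r. Sst, Ppy, Pyy, Nr5a2, Gata6, Krt8, Krt18, Cdh1, Cldn4, Elf3, Sox9, Muc1, Prom1, Aqp1, Gkn1, Gkn2, Atp4a, Cblif, Ggt5 and Sdcbp2 were named after their values were seen. Of the other lists, the mesothelium list had 4 of 7 genes and the lymphoid list 7 of 11 detected on any liver, with medians of -0.38 and 0.09 over their tested genes, and the adipocyte, brain and muscle lists had 5 of 6, 2 of 6 and 3 of 7. Promoters are from RefSeq, GRCm38.p6, where all 4 genes matched.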

Additional observations from a re-analysis of the deposited data

Results flagged for a closer look

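Epcam had a Signal of 830.3 on the 25th array, congenic brain replicate 2, which entered no comparison. Its S/N was 3, at the detection threshold, and the highest Epcam Signal on the 6 named brain arrays was 606.5.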

How the results depend on the processing

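In the strain tests of brain, gonadal fat and gastrocnemius, the count of called genes was 0 under every alternative that was run, including each array left out. In brain and gastrocnemius 0 of the 4 genes were tested except with no filter, so only that setting, with 4 tested, could have called any. In gonadal fat 1 or 2 genes were tested, and 4 with no filter. Between gonadal fat and brain Epcam alone was called, except with the series matrix values, where 0 genes were called because Epcam is blank in brain. Between gonadal fat and gastrocnemius 1 gene was called (Epcam), and 1 with the series matrix values, which was Cpa1. The brain and gastrocnemius count of 1 (Cpa1) became 2 with median centring (Ctrb1 added) and 0 with the series matrix values, with no filter (adjusted p = 0.0529) and with no intensity trend (adjusted p = 0.0610). With each array left out, the count ran from 0 to 2 for brain and gastrocnemius, where Cpa1 ran from -2.55 to -1.0 log2 units (adjusted p from 0.00859 to 0.125). It ran from 1 to 2 for fat and gastrocnemius, where Cel was added without B6 gastrocnemius replicate 2, and was 1 throughout for fat and brain. The cause of these changes was not tested. With the title number as a random replicate block, the counts were 1, 1 and 1, and no call changed. Same-numbered fat and muscle arrays did not deviate together (r of -0.001, 0.027 and -0.017 over the 3 shared numbers), and the correlation within numbers was -0.0206.

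With each liver array left out, the strain difference ran from 1.01 to 6.17 for Ctrb1, 0.82 to 4.45 for Cel, -0.18 to 5.35 for Cpa1 and 1.77 to 3.24 for Epcam, and the median of the 4 ran from 0.91 to 4.90 around 2.82. Liver minus other tissues ran from 1.92 to 4.08 for Ctrb1, 2.45 to 3.83 for Cel, 3.09 to 5.13 for Cpa1 and -0.62 to 0.18 for Epcam. The median of the 4 liver differences was 2.82 with no background correction and 3 with median centring. Averaging probes changed nothing, as each gene has 1 probe. Cel on 3 livers and Epcam on 4 had S/N under 5, close to background. Ctrb1 was also under 5 on congenic liver replicate 1 and B6 liver replicates 1 and 3, at S/N of 1.4, 0.8 and 4.1. Cpa1 was under 5 on congenic liver replicate 1, at S/N of 0. Of the 10 genes closest to the enzymes, 6 were shared when ranked by Spearman rho and 10 with median centring. The alternatives on the acinar list, leaving out each array, 2 scalings and S/N of at least 5, were chosen after seeing the data. The tested acinar genes had a median of 2.47, which ran from 0.34 without congenic replicate 2 to 5.09 without congenic replicate 1. It was 2.46 with no background correction and 2.63 with median centring, and 15 acinar genes were detected on B6 gastrocnemius replicate 1 at S/N of at least 5.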
